A study of Homo sapiens with 6 samples.

Results

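The LNCaP lineage, LNCaP and its castration-resistant relative LNCaP-abl, was set against the VCaP and LAPC4 lineages to find genes by which a line is told from the others whether it is castration sensitive or resistant. The members were chosen by the line names in the labels and make up 2 of the 6 samples, with VCaP, VCaP-CR, LAPC4 and LAPC4-CR as the other 4. All 6 are human prostate cancer cell lines, and each gave 1 library of total RNA. The labels call the parent lines castration sensitive; their medium was DMEM for VCaP and RPMI for both LNCaP and LAPC4, with 10% fetal bovine serum in either. The lines with the suffix abl or CR are called castration resistant and were all grown in RPMI with 10% charcoal-stripped serum, which is depleted of steroids, and B27 supplement. Medium and state therefore cannot be told apart, and in the sensitive state VCaP also differed from LNCaP in its base medium. The 2 libraries of a lineage are 2 states of 1 line, and the labels name no separate cultures, so every p-value below measures the spread between these libraries only.

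LNCaP cells come from a lymph node metastasis and are known for growth that responds to androgen and for a rearranged ETV1. VCaP cells are known for a fusion of TMPRSS2 with ERG, and LAPC4 cells were raised from a xenograft of a lymph node metastasis. Lines differ from one another through inherited mutations, deletions, copy number and silenced or open chromatin, and such features usually outlast a change of medium, whereas androgen targets follow the hormone. The comparison asks which genes set the LNCaP lineage apart in both states.

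Levels are given as scaled FPKM, fragment counts corrected for the length of the gene and the size of the library, divided by a factor for each library. Total counts lay between 8661337 and 22433655 per library, and protein-coding genes took 62.8% to 79.5% of them. Luminal markers were present in all 6 libraries. The basal markers KRT5 and TP63, the fibroblast markers COL1A1, COL1A2, COL3A1 and DCN, the endothelial marker CDH5 and the immune markers PTPRC, CD3E and LYZ were under 1 in every library. The fibroblast marker LUM was at 52.4 in VCaP-CR, and its part in the comparison was not tested.

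A protein-coding gene was tested when its mean level over the 6 libraries was at least 1, which 11337 genes met. A tested gene was called kept apart when LNCaP lay at least 2-fold above, or below, both VCaP and LAPC4, and LNCaP-abl lay at least 2-fold to the same side of both VCaP-CR and LAPC4-CR, on the log2(scaled FPKM + 1) scale, which understates the difference of low genes. The lineage kept 121 genes higher and 80 lower in this way, 1.07% and 0.706% of the tested genes, or 201 genes and 1.77% together. For 200 of these 201 genes both LNCaP-lineage libraries lay outside the range of all 4 others. The rule all but fixes this count, so it is no support for the choice of genes. By the same count the VCaP lineage kept 400 genes higher and 195 lower, and the LAPC4 lineage 231 and 141, so the LNCaP lineage had the fewest in each direction. At the edge of the rule, the smaller of the 2 distances was 1.02 on the log2 scale for PLEKHB1 and -1.01 for C20orf177, both just inside, and 0.99 for LRRC20 and -0.99 for NTN4, both just outside. Fewer genes held their place in both states than in 1 state. LNCaP alone was 2-fold apart for 365 genes (3.22%) and LNCaP-abl alone for 629 (5.55%). Across the 11337 genes, the lineage difference in the sensitive libraries and that in the resistant libraries, which share no library, had a Pearson r of 0.49; genes are not independent replicates.

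**Figure D1:**
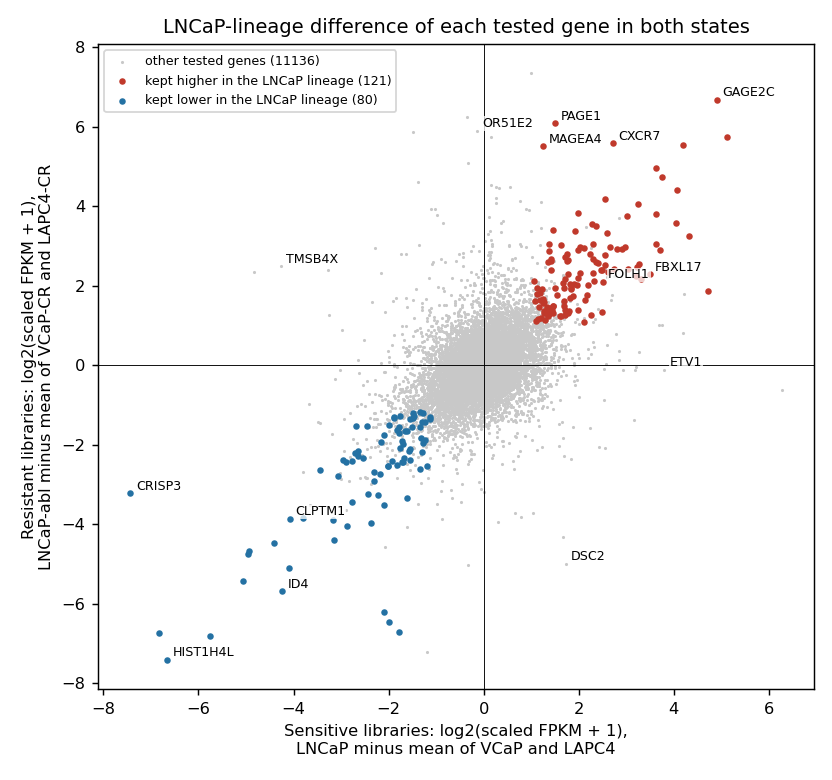
Each point is 1 of the 11337 tested genes; the x axis gives LNCaP minus the mean of VCaP and LAPC4 and the y axis LNCaP-abl minus the mean of VCaP-CR and LAPC4-CR, both in log2(scaled FPKM + 1). The 121 genes kept higher lie in the upper right and the 80 kept lower in the lower left, while TMSB4X and DSC2 lie in the corners where the sign differs between the states.

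With edgeR's quasi-likelihood test on the counts, with state as a covariate and Benjamini-Hochberg adjustment, 0 genes differed between the 2 LNCaP-lineage and the 4 other libraries at an adjusted p under 0.05. The smallest adjusted p was 0.0641, and the median log2 difference of all tested genes was -0.06. At an unadjusted p under 0.05, edgeR gave 520 genes higher (4.59%) and 508 lower (4.48%). DESeq2 with the same terms called 168 higher and 232 lower, and 175 of its 400 calls were genes kept apart in the same direction. When VCaP and LAPC4 entered as separate lineages, edgeR called 32 genes higher and 32 lower against both at once (0.282% in each direction). Against the VCaP lineage by itself 1.54% of tested genes were called higher and 2.88% lower, and against the LAPC4 lineage 1.02% and 1.16%. Both contrasts share the LNCaP-lineage libraries and rest on few degrees of freedom. The genes described next are from the 12 higher and 12 lower genes with the smallest edgeR p among those kept apart. All 24 were among those 64, and their level, not the adjusted p of the pooled comparison, is what sets them out.

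An antigen and several signalling genes were among the first of the genes kept higher. MAGEA10, a cancer-testis antigen normally restricted to germ cells (chromosome X, 151052438-151057689 in hg18), was at 28 in LNCaP and 31.4 in LNCaP-abl, against 0.940 and 0.573 in VCaP and its resistant line and 0.538 and 0.476 in LAPC4 and its resistant line. Its RNA was thus plentiful in both LNCaP-lineage libraries and low elsewhere, where 19 to 34 fragments were counted in each library. The edgeR log2 difference was 5.57 (SE 0.40, adjusted p = 0.0641). PHLDA3, which restrains AKT (chromosome 1, 199701243-199704988), was at 15.5 and 10.5 in LNCaP and LNCaP-abl, and between 0.316 and 0.482 in the 4 others. The edgeR log2 difference was 5.12 (SE 0.44, adjusted p = 0.0641).

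PIK3CD encodes the delta catalytic subunit of PI3-kinase, which is best known from white blood cells (chromosome 1, 9634377-9711759). It was at 6.13 in LNCaP and 15.8 in LNCaP-abl, and at 0.431, 0.487, 0.496 and 0.371 in VCaP, VCaP-CR, LAPC4 and LAPC4-CR. Both LNCaP-lineage libraries stood far above the rest, LNCaP-abl the higher of them. The log2 difference was 4.51 (SE 0.45, edgeR adjusted p = 0.0770). TFPI, the tissue factor pathway inhibitor that checks blood clotting (chromosome 2, 188037202-188138732), was at 11.3 and 7.19 in the LNCaP lineage, and at 0.402 to 0.679 in the other libraries. GULP1, an adaptor for the engulfment of dying cells that lies on the same chromosome, was on in all 6 libraries, at 23.8 and 24 in LNCaP and LNCaP-abl against 2.58 to 4.54. All 3 genes were detected in the other lineages too, with 61 to 128 fragments of TFPI and 27 to 65 of PIK3CD counted in each of those libraries.

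GTF2H2, a subunit of the repair and transcription factor TFIIH, was at 18.1 and 19.2 in the LNCaP lineage and at 2.21 to 3.14 elsewhere. It has a near-identical copy, GTF2H2C, at 4.38 and 4.39 against 1.08 to 1.24, and how the authors' counting treated reads that match both is not given, so the split between them is uncertain. DNAJC15, a co-chaperone of mitochondrial protein import, was at 4.48 and 5.16 against 0.239 to 0.392. FBXL17, which picks substrates for a ubiquitin ligase, was at 36.1 in LNCaP and 15.4 in LNCaP-abl against 1.89 to 2.75. The scaffold gene MPP2 and C2orf43 had the same layout, with MPP2 at 8.31 and 9.16 against 0.539 to 1.04 and C2orf43 at 5.16 and 7.77 against 0.200 to 0.435. The edgeR log2 differences of these 5 genes ran from 2.86 for GTF2H2 to 4.45 for C2orf43, with adjusted p between 0.0770 and 0.105.

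Among the genes kept lower, several were close to silent in the LNCaP lineage and well expressed in all 4 other libraries. CLPTM1, which encodes a transmembrane protein (chromosome 19, 50149688-50188438), was at 0.787 in LNCaP and 0.964 in LNCaP-abl, against 29.5 (VCaP), 24.2 (VCaP-CR), 28.9 (LAPC4) and 31.8 (LAPC4-CR). The 4 other libraries agreed closely with one another, and the edgeR log2 difference was -5.04 (SE 0.38, adjusted p = 0.0641). NME4, a mitochondrial nucleoside diphosphate kinase (chromosome 16, 386726-400368), was at 0.810 and 0.459 in the LNCaP lineage against 18.8 to 29.7. ALDH7A1, an aldehyde dehydrogenase of lysine breakdown (chromosome 5, 125905432-125959009), was at 0.461 and 0.289 against 5.74 to 9.20. For NME4 and ALDH7A1 edgeR gave log2 differences of -5.19 and -4.33, each with an adjusted p of 0.0641.

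ID4, an inhibitor of helix-loop-helix transcription factors (chromosome 6, 19945596-19948894), was at 0.985 in LNCaP and 0.785 in LNCaP-abl. VCaP had 39.2 and VCaP-CR 106, while LAPC4 had 34.1 and LAPC4-CR 78.4. In both other lineages the resistant library was the higher one, while the LNCaP-lineage libraries stayed near 1. The edgeR log2 difference was -6.00 (SE 0.62, adjusted p = 0.0770). SYNJ2, an inositol phosphatase of membrane traffic, was at 0.881 and 0.905 against 5.20 to 10.5, and B3GNT5, a glycolipid glycosyltransferase, at 0.473 and 0.236 against 2.23 to 9.48.

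**Figure D2:**
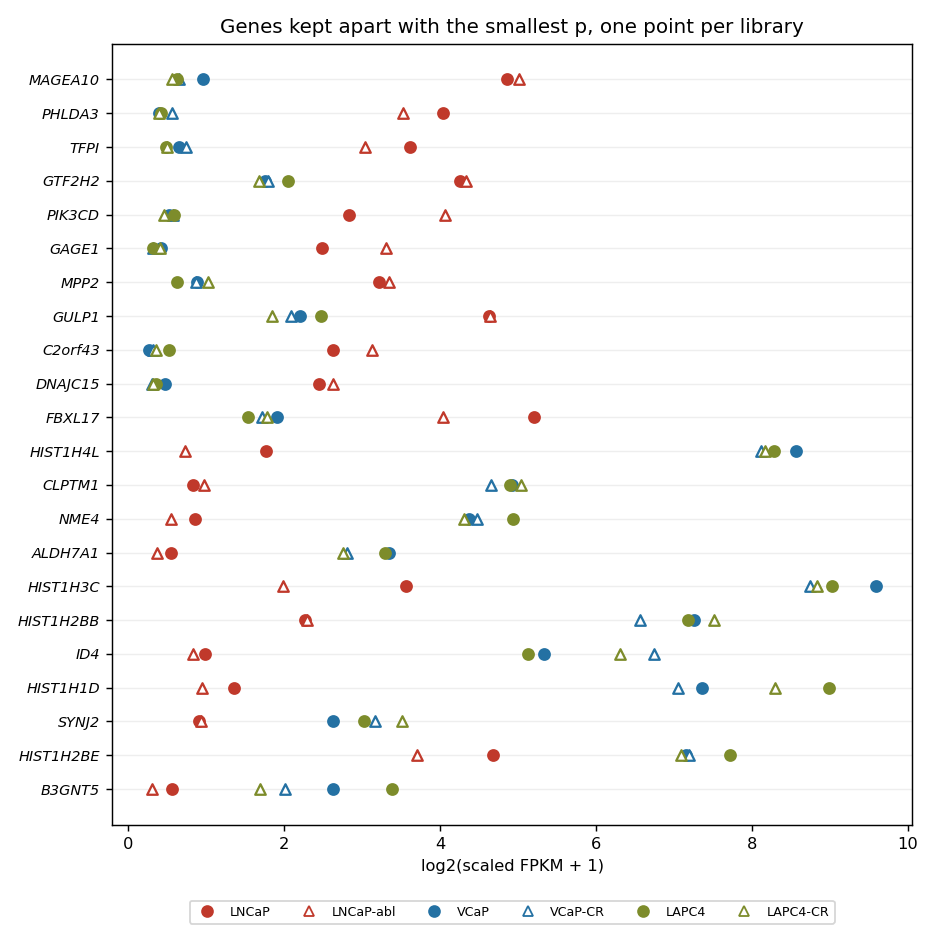
Levels in log2(scaled FPKM + 1) of genes kept apart with the smallest edgeR p, with circles for the sensitive and triangles for the resistant library of each lineage. In every row the 2 LNCaP-lineage points lie apart from the 4 others, to the right in the upper rows down to FBXL17 and to the left in the lower rows from HIST1H4L.

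Over the 24 named genes as a whole, the nearest tested gene on each side was read off as well. Of 48 such neighbours 10 were kept apart, beside 1.77% of all tested genes. The median absolute edgeR log2 difference was 4.39 for the named genes, 1.16 for their neighbours and 0.44 for all tested genes. Several named genes neighbour one another or members of their own family. Among them are TFPI and GULP1, the histone genes, and GAGE1 with GAGE2A. The neighbours are therefore not independent of the choice, and their share is no support for it.

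The replication-dependent histone genes of the HIST1 cluster on chromosome 6 gave 10 of the 80 genes kept lower. They encode the core histones and linker histones made in S phase, and their messages end in a stem-loop in place of a poly(A) tail. The cluster was singled out after its values were seen. The deposited data list 55 of its genes, of which 51 were tested, and 10 of these were kept lower and 0 higher (19.6% kept apart, beside 1.77% of all tested genes). HIST1H4L, a histone H4 gene, was at 2.42 in LNCaP and 0.659 in LNCaP-abl, where 8 and 3 fragments were counted, against 378, 277, 312 and 288 in VCaP, VCaP-CR, LAPC4 and LAPC4-CR. HIST1H3C was at 10.8 and 2.96 against 427 to 771, and HIST1H2BB at 3.83 and 3.90 against 93.4 to 183. HIST1H1D, a linker histone gene, was at 1.56 and 0.926 against 164, 132, 508 and 314. Both LNCaP-lineage libraries lay far below the 4 others for each of these genes, and HIST1H3C was still counted 45 times in LNCaP. The edgeR log2 differences were -7.80 for HIST1H4L, -6.50 for HIST1H3C, -5.22 for HIST1H2BB and -7.83 for HIST1H1D, with adjusted p between 0.0641 and 0.105.

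Other genes of the same cluster were on in all 6 libraries. HIST1H1C, another linker histone gene, was at 875 and 650 in LNCaP and LNCaP-abl, and at 1513, 888, 835 and 504 in VCaP, VCaP-CR, LAPC4 and LAPC4-CR, so the groups overlapped. HIST1H2BD was at 166 and 141 against 148 to 254, and HIST1H2BC at 168 and 188 against 137 to 235. Summed over the 10 genes kept lower, the level was 426 in LNCaP and 53.2 in LNCaP-abl against 2177 to 3768. Summed over the other 45 genes of the cluster, it was 9231 in LNCaP against 17260 and 9983 in VCaP and LAPC4, and 5566 in LNCaP-abl against 10850 and 7573 in their resistant lines. Within each state the sum of these other genes was thus also lower in the LNCaP lineage, though LNCaP lay close to LAPC4. Of the 51 tested genes, 4 had an edgeR log2 difference above 0, beside 5213 of all 11337 tested genes. The median of the 51 was -0.61, beside -0.06 over all tested genes. The 51 include the 10 genes picked as kept lower, which help set both values. Another set within the cluster was much lower in LNCaP-abl than in LNCaP. HIST1H3A was at 54.4 in LNCaP and 0.853 in LNCaP-abl against 117 to 287, and HIST1H3I at 87.1 and 1.17 against 212 to 337. HIST1H2AE was at 161 and 4.09 against 408 to 704. All 3 were kept lower because LNCaP already lay 2-fold below both sensitive lines. HIST1H2BG, at 277 and 2.16 against 365 to 850, was not kept apart, since LNCaP missed the 2-fold distance. The proliferation genes, whose products accompany the S phase in which these histones are made, had 0 of 35 tested members kept apart, a count that the 1.77% of all tested genes does not set off. Their median log2 difference was -0.35. Histone genes are short and alike in sequence, and how reads that match several of them were counted is not given, so the level of each single gene is uncertain.

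**Figure D3:**
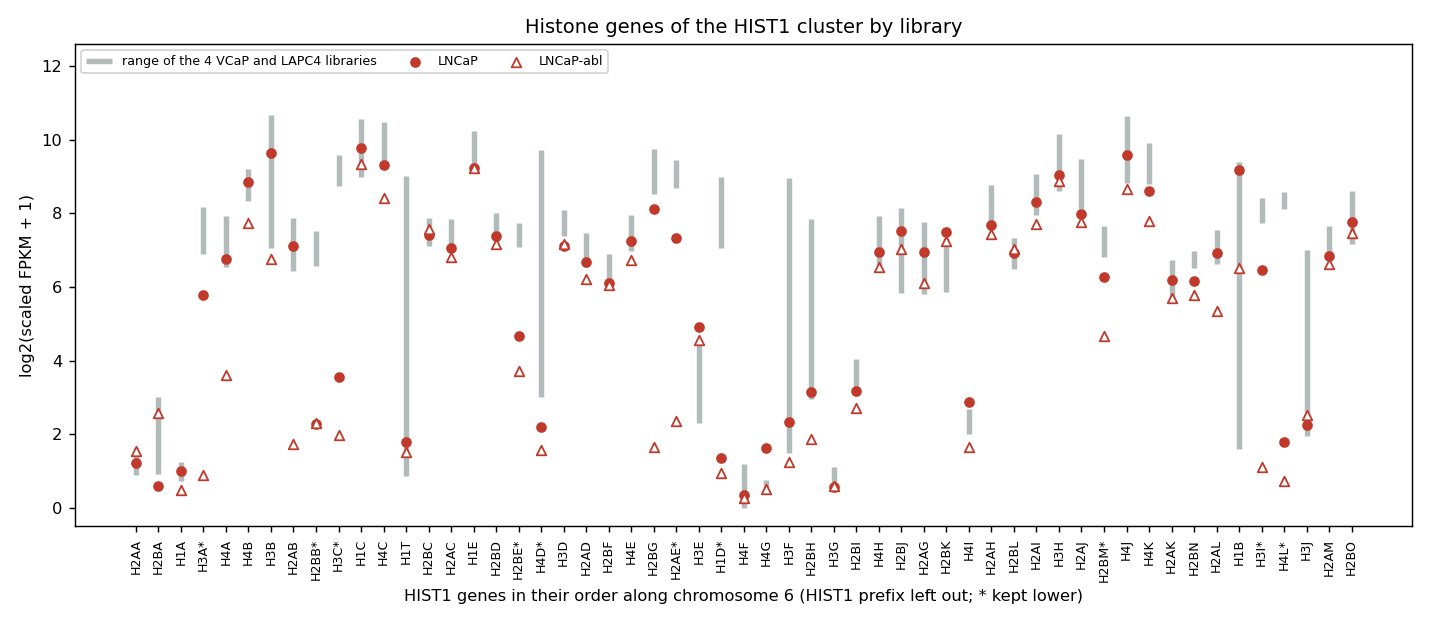
Levels in log2(scaled FPKM + 1) of the 55 HIST1 genes in their order along the chromosome, with LNCaP as filled circles, LNCaP-abl as open triangles and the range of the 4 VCaP and LAPC4 libraries as grey bars; asterisks mark the 10 genes kept lower. Starred genes lie between unstarred ones along the cluster, and the lowest triangles among the starred genes belong to HIST1H4L, HIST1H3A and HIST1H1D.

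The start regions of HIST1H1D, near silent in the LNCaP lineage, and of HIST1H1C, on in every library, are shown because both are linker histone genes of 1 cluster and only HIST1H1D was kept apart. They are RefSeq promoter windows of GRCh38.p14, from 250 bases before to 50 bases after the start, on the minus strand, at chr6:26234938-26235237 for HIST1H1D (now H1-3) and chr6:26056421-26056720 for HIST1H1C (now H1-2). Capitals mark CCAAT, the box bound by NF-Y, and the TATA box letters TATAAA.
HIST1H1D: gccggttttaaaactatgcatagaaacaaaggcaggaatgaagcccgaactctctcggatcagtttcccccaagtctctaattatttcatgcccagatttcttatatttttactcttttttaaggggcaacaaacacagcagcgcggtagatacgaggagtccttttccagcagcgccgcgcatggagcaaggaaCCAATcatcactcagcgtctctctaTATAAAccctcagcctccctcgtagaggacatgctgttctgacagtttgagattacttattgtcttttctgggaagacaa
HIST1H1C: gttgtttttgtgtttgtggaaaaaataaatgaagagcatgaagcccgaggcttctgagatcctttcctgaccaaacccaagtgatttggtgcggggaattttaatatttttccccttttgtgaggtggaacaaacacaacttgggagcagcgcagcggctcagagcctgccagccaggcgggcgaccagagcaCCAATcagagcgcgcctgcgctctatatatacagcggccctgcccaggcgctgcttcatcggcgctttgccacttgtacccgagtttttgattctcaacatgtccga
Both windows hold CCAAT at much the same distance from the start, and the first holds the exact letters TATAAA as well. The window of HIST1H1C lacks those letters but reads tatatata at much the same place. Variants of the TATA box were not searched, so the windows are not told apart by a TATA box. Of 300 aligned positions, read without gaps, 132 had the same base (44.0%). Searched on both strands, CCAAT was found in 7 of the 8 matched windows of the HIST1 genes kept lower and in 31 of the 37 matched windows of the other HIST1 genes, beside 35.7% of all 27305 windows in the table. TATAAA was found in 7 of 8 and 23 of 37, beside 12% of all windows. A match of letters is a description of the window and shows no bound factor.

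The GAGE genes, cancer-testis antigens in a tandem array on the X chromosome, were higher in the LNCaP lineage in every tested member. The family was likewise singled out after its values were seen. All 8 tested members of 18 in the tables were kept higher, beside 1.07% of all tested genes; a member could pass the filter only through the libraries in which it was high, so this count is no support by itself. Over all 18 genes together 684 fragments were counted in LNCaP and 2142 in LNCaP-abl, against 14 (VCaP), 13 (VCaP-CR), 20 (LAPC4) and 61 (LAPC4-CR). The summed level was 130 and 295 in the LNCaP lineage and at most 2.80 elsewhere. Reads of the array were therefore present in number in both LNCaP-lineage libraries and nearly lacking in the others. GAGE2A was at 47.1 and 83.9, and GAGE2C at 37.2 and 127, in LNCaP and LNCaP-abl, and both were listed at 0 in VCaP and VCaP-CR. GAGE1, the member with the smallest p, was at 4.60 and 8.90 against 0.247 to 0.341, with an edgeR log2 difference of 4.46 (SE 0.46, adjusted p = 0.0770).

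Several GAGE copies are near identical, which is why sums over the family are given. The RefSeq window of GAGE2A, on the plus strand of GRCh38.p14 at chrX:49589246-49589545, is shown as the window that several members share; it holds neither CCAAT nor TATAAA, and capitals are not used.
GAGE2A: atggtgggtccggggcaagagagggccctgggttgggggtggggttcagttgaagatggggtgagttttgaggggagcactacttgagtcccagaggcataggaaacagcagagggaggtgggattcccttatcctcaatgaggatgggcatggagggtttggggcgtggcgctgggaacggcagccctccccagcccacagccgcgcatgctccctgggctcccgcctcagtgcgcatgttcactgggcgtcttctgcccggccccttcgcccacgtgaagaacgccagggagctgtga
The window of GAGE12C at chrX:49531927-49532226 is the same in all 300 bases, as are those of GAGE12D, GAGE12E, GAGE12F, GAGE12H and GAGE12J, while that of GAGE13 has the same base at 299 positions. Compared base by base without gaps, 5 other windows shared less with it, from 28.7% of bases for GAGE12G, through 32.7% each for GAGE1, GAGE4 and GAGE12B, to 50.7% for GAGE10.

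The cancer-testis list had 4 of 17 tested members kept higher and 0 lower (23.5%, beside 1.07% of all tested genes kept higher). They were GAGE1 of the array, MAGEA4, MAGEA10 and PAGE1. The mean of each over the VCaP and LAPC4 libraries was under 1, from 0.292 for GAGE1 to 0.915 for PAGE1. These 4 thus passed the filter only through the LNCaP lineage, and the share is no support by itself. The median edgeR log2 difference of the list was -0.11. Its median difference in log2(scaled FPKM + 1) was 0.86 in the sensitive and 2.21 in the resistant libraries. The sign of the median thus depended on the measure. MAGEA4 was at 2.39 in LNCaP and 62.7 in LNCaP-abl against 0.277 to 0.576. PAGE1 was at 2.81 and 158 against 0 and 0.784 in VCaP and its resistant line and 0.812 and 2.06 in LAPC4 and its resistant line. Unlike MAGEA10, both were low in LNCaP and high in LNCaP-abl, and in LNCaP they rest on 67 and 17 fragments. By chromosome, X had 24 of its 412 tested genes kept higher (5.83%), of which 8 were GAGE genes, and 2 kept lower. Chromosome 13 had 4 of 191 kept higher (2.09%) and chromosome 16 had 11 of 544 (2.02%). Chromosome 6 had 11 of 618 kept higher (1.78%) and 16 kept lower (2.59%), of which 10 were HIST1 genes. Over all tested genes the shares were 1.07% kept higher and 0.706% kept lower. The chromosomes named here were picked for their shares.

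HLA-B and HLA-C, classical class I genes, were higher in both LNCaP-lineage libraries. They present peptides to T cells, and their heavy chains need beta-2-microglobulin, encoded by B2M. HLA-B was at 8.72 in LNCaP and 13.4 in LNCaP-abl, against 0.930 to 2.91 in the 4 others, and HLA-C at 28.2 and 43.5 against 1.37 to 6.38. B2M was at 93.3 and 143 in the LNCaP lineage against 51.6 to 166, so its groups overlapped. HLA-B and HLA-C were named because they were kept apart, so the lack of overlap in their groups follows from that choice. Over the 18 tested genes of the class I presentation list, the median edgeR log2 difference was 0.27, beside -0.06 over all tested genes. The edgeR log2 difference was 2.54 for HLA-B (SE 0.52, adjusted p = 0.361) and 3.11 for HLA-C (SE 0.65, adjusted p = 0.380). These genes are alike and vary between people, which makes their counts uncertain.

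A few interferon-stimulated genes were also kept higher. IFITM3, a membrane protein that hinders virus entry, was at 18.3 and 18.9 in LNCaP and LNCaP-abl against 3.52 and 1.11 in VCaP and its resistant line and 1.24 and 0.863 in LAPC4 and its resistant line. IFI35 was at 3.85 and 7.22 against 0.193 to 0.462, and IFI6 at 10.4 and 6.66 against 2.07 to 4.57. In the list of 41 genes, 18 were tested, of which 3 were kept higher and 0 lower (16.7%, beside 1.07% of all tested genes kept higher). IFI35 averaged 0.370 over the VCaP and LAPC4 libraries and passed the filter only through the LNCaP lineage, so the filter helps set this share. The log2 difference was above 0 in 13 of the 18, with a median of 1.02, beside -0.06 over all tested genes. The others had too low a mean level to be tested. No gene of the list of interferon receptors and JAK-STAT members was kept apart among 18 tested. At 1.77% of all tested genes this is no result about a list of this size. The median log2 difference of that list was -0.19. JAK1, the kinase that interferon receptors signal through, was at 0.661 and 0.912 in the LNCaP lineage, at 0.880 and 0.724 in LAPC4 and LAPC4-CR, and at 5.72 and 6.01 in VCaP and VCaP-CR. It was thus low in the LNCaP and LAPC4 lineages alike and did not separate LNCaP from both others.

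Among genes for proteins of the cell surface, FOLH1 and CXCR7 were kept higher. FOLH1 encodes prostate-specific membrane antigen, the target of prostate cancer imaging. Its level was 134 in LNCaP and 110 in LNCaP-abl, against 12.2 (VCaP), 26.0 (VCaP-CR), 41.8 (LAPC4) and 24.3 (LAPC4-CR). The gene was on in all 6 libraries, with both LNCaP-lineage libraries above the rest and a log2 difference of 2.21 (SE 0.51, edgeR adjusted p = 0.404). CXCR7, a receptor for the chemokine CXCL12, was at 22.7 and 89.6 against 0.676 to 3.17. Of the surface antigen list, 2 of 25 tested genes were kept higher and 1, EPCAM, lower (12%, beside 1.77% of all tested genes). The log2 difference was above 0 in 8 of the 25, with a median of -0.60.

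The luminal epithelial list had 3 of 28 tested genes kept lower and 0 higher (10.7% kept apart, beside 1.77% of all tested genes). KRT19, a simple epithelial keratin, was at 1.63 in LNCaP and 1.43 in LNCaP-abl, against 15.7 and 8.93 in VCaP and its resistant line and 32.4 and 129 in LAPC4 and its resistant line. ESRP1, an epithelial splicing regulator, was at 15.7 and 10.9 against 44.7 to 53.5, and EPCAM, the epithelial cell adhesion molecule, at 30.4 and 22.8 against 88.5 to 103. LNCaP and LNCaP-abl thus expressed ESRP1 and EPCAM at a lower level and KRT19 close to the floor. The median log2 difference of the list was -0.64. ANXA2, a membrane-binding annexin, was at 0.913 and 1.20 in the LNCaP lineage against 6.54, 28.8, 11.8 and 38.5 in VCaP, VCaP-CR, LAPC4 and LAPC4-CR. ANXA6, another annexin, lay the other way, at 17.5 and 25.7 against 0.612 to 4.17. TMSB10, an actin-binding thymosin, was at 106 and 110 against 279 to 1597. In the list of annexins, S100 proteins, caveolins and thymosins, 1 of 22 tested genes was kept higher and 2 lower. This was 13.6% kept apart, beside 1.77% of all tested genes. Of the basal list 1 of 11, the Notch ligand JAG1, was kept higher, at 11 and 23.1 against 0.570 to 6.0 (9.09%, beside 1.77% of all tested genes kept either way). Of the 11 tested basal genes 3 had an edgeR log2 difference above 0, and their median was -0.86.

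**Figure D4:**
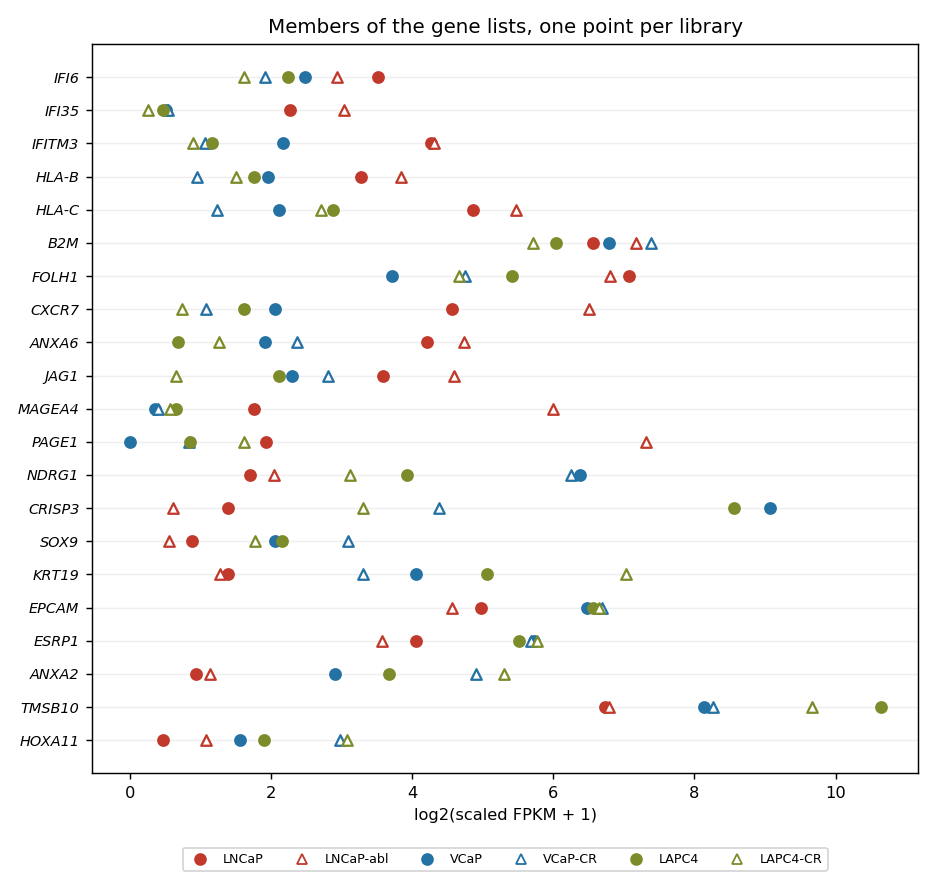
Levels in log2(scaled FPKM + 1) of members of the gene lists, with circles for the sensitive and triangles for the resistant library of each lineage. The LNCaP-lineage points lie to the right for the interferon, HLA, surface antigen, ANXA6, JAG1, MAGEA4 and PAGE1 rows and to the left from NDRG1 to HOXA11, while in the B2M row they lie among the others.

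Of 31 tested androgen targets, 0 were kept higher and 1 lower (3.23%, beside 1.77% of all tested genes kept either way). KLK3, which encodes prostate-specific antigen, was at 621 in LNCaP and 0.614 in LNCaP-abl, with VCaP at 342, VCaP-CR at 20, LAPC4 at 108 and LAPC4-CR at 1.91. LNCaP was the highest library and LNCaP-abl the lowest, so KLK3 went with the state in place of the lineage. NDRG1, a differentiation-linked androgen target, was the member kept lower. It was at 2.25 and 3.13 in the LNCaP lineage against 82.1 (VCaP), 75.2 (VCaP-CR), 14.2 (LAPC4) and 7.70 (LAPC4-CR). Its edgeR log2 difference was -4.07 (SE 1.30, adjusted p = 0.486). HOXB13, a prostate homeobox factor, was at 60.0 and 62.2 in the LNCaP lineage and at 45.6, 37.1, 31.2 and 1.52 in the others. SOX9, a transcription factor of prostate development, was kept lower, at 0.838 and 0.467 against 2.42 to 7.52. It was 1 of 19 tested lineage factors and steroid receptors (5.26%, beside 1.77% of all tested genes kept either way).

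Of 18 tested ETS factors 0 were kept apart, which at 1.77% of all tested genes is no result about a list of this size. ETV1 was at 16.9 in LNCaP and 0.149 in LNCaP-abl, against 0.240 to 0.309 in the others. ERG was at 0.179 and 0.0800 in LNCaP and LNCaP-abl, at 17.7 and 5.71 in VCaP and VCaP-CR, and at 0.164 and 0.176 in LAPC4 and LAPC4-CR. ETV1 was thus high in LNCaP only, and ERG in VCaP and VCaP-CR only. Of 15 tested genes associated with ERG, CRISP3 was kept lower (6.67%, beside 1.77% of all tested genes kept either way). It was at 1.61 and 0.534 in the LNCaP lineage. VCaP and VCaP-CR had 539 and 19.8, and LAPC4 and LAPC4-CR 377 and 8.86. CRISP3, a secreted protein, was high in LAPC4 too, a line with ERG near 0.

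In the list of PI3-kinase pathway genes, PIK3CD was kept higher, as 1 of 27 tested genes (3.70%, beside 1.77% of all tested genes). CDKN1A, which encodes the cell cycle inhibitor p21, was at 25.6 and 27.7 in the LNCaP lineage against 3.99 to 22.1. It was not kept apart, since LNCaP lay only 0.21 above VCaP on the log2(scaled FPKM + 1) scale. Its edgeR adjusted p was 0.607. MDM2, a ubiquitin ligase, was at 13.1 and 8.96 against 4.85 to 14.3, so its groups overlapped.

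Of the remaining lists, HOX clusters had 1 of 16 tested genes kept lower (6.25%, beside 1.77% of all tested genes kept either way). This was HOXA11, at 0.381 and 1.11 against 1.94 to 7.49. The mesenchymal list (9 tested), the UGT2B glucuronidation list (7 tested), the neuroendocrine list (10 tested) and the list of other cell types (1 tested) had 0 genes kept apart. At 1.77% of all tested genes this is no result about lists of such size. CAV1, a marker of aggressive prostate cancer, was under 1 in every library. GSTP1, a detoxifying enzyme often silenced in prostate cancer, was at 1.09 and 0.582 in the LNCaP lineage and at 0.832 and 1.02 in VCaP and VCaP-CR, and at 139 in LAPC4 and 7.11 in LAPC4-CR. It set the LAPC4 lineage apart and not LNCaP.

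Some genes set the lineage apart in opposite directions in the 2 states. There were 11, of which 4 lay at least 2-fold above both lines in LNCaP and below both in LNCaP-abl, and 7 the reverse. DSC2, a desmosomal cadherin, was at 67.2 in LNCaP against 15.1 in VCaP and 25.4 in LAPC4, and at 0.565 in LNCaP-abl against 26.0 in VCaP-CR and 92.5 in LAPC4-CR. TMSB4X, an actin-binding thymosin of the X chromosome, was at 3.80 in LNCaP against 38.3 in VCaP and 218 in LAPC4, and at 414 in LNCaP-abl against 82.8 in VCaP-CR and 64.3 in LAPC4-CR. The desmosomal gene thus went from the top of the sensitive lines to the bottom of the resistant ones, and the thymosin the other way. TMSL3 and TMSL4 followed TMSB4X, and they are near copies of it whose reads may be shared. NNT, a mitochondrial transhydrogenase, was at 0.640 in LNCaP against 2.97 and 5.60, and at 7.21 in LNCaP-abl against 2.20 and 1.00.

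The test of this difference, the interaction of lineage and state, gave 0 genes in edgeR at an adjusted p under 0.05, with 174 genes (1.53%) at an unadjusted p under 0.05, and 35 genes in DESeq2. The smallest p belonged to ETV1, HIST1H3I, OR51E2, GALNT7, HIST1H2AE and HIST1H2BG. OR51E2, an olfactory receptor known from prostate, was at 0.153 in LNCaP and 71.4 in LNCaP-abl against 0.134 to 0.409 elsewhere. GALNT7, an enzyme of mucin-type glycosylation, was at 23.8 in LNCaP and 0.652 in LNCaP-abl against 10.8 to 28.6. In each of these 6 genes LNCaP-abl differed from LNCaP more than the resistant libraries of the other lineages differed from theirs. The choice by interaction p favours genes with such a pattern, so the pattern is no result of its own. With 1 library for each state of the lineage, these differences have no replicate within it.

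**Figure D5:**
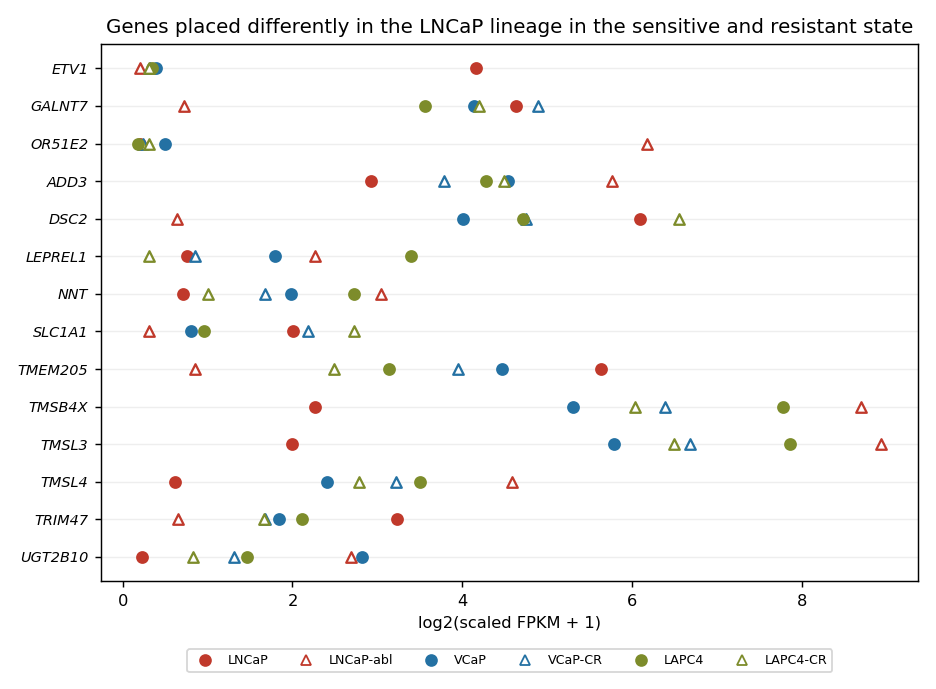
Levels in log2(scaled FPKM + 1) of ETV1, GALNT7, OR51E2 and the 11 genes apart in opposite directions, with circles for the sensitive and triangles for the resistant library of each lineage. For TMSB4X, TMSL3 and TMSL4 the LNCaP circle is the leftmost and the LNCaP-abl triangle the rightmost point, and for DSC2 the LNCaP circle lies above the other 2 circles and the LNCaP-abl triangle is the leftmost point.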

How the data were processed

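Total RNA of the 6 lines was purified on RNeasy columns and sequenced from SOLiD Total RNA-Seq libraries, per the labels' protocols. The submitters' processing notes name HTSeq and hg18; for the aligner, the annotation and the use of strand, nothing is given in the sources used here. Per the file headers, the authors deposited a count and an FPKM value for each of 51698 genes, and the deposited FPKM equals the count divided by gene length and library total within 1%. Positions are hg18 with 1 added to the start.

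The 19959 protein-coding entries gave 19951 symbols, 8 of them sums of entries, and 25 symbols turned into dates were restored. FPKM was divided by a median-of-ratios factor from 8682 genes (0.811 to 1.17). Genes whose scaled FPKM averaged 1 or more were tested with edgeR 4.0.16 (TMM, quasi-likelihood, R 4.3.3; the SE is the log2 difference over the root of F), adjusted over all 11337. Alternatives were DESeq2 1.42.0, limma 3.58.1, other factors, filters, terms and pseudocounts, and each library left out. The edgeR model and the rule for genes kept apart were tested on data with known answers. Intervals are not printed. Relative counting error is larger where fewer fragments of a gene were counted.

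The members and gene lists were chosen with earlier results of these data known. Named are the 12 genes per direction kept apart with the smallest p, up to 4 list members kept apart, 6 genes with the smallest interaction p and fixed genes of prostate cancer. The rule's list part asked for called genes, of which there were 0, so list members kept apart are named instead; these, the HIST1 and GAGE genes and the genes apart in opposite directions were chosen after their values were seen. Promoters matched 88 of the 121 and 59 of the 80 kept genes by identifier, symbol or synonym. Some of the named genes are not reported here.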

Additional observations from a re-analysis of the deposited data

Results flagged for a closer look

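In the 4 VCaP and LAPC4 libraries, 1 library lay far from the other 3 for 6 of the 68 named genes checked, by Dixon's ratio of the gap to the range on the log2 scale. Chance flags about 1 in 20 such groups. The ratio was 0.832 for PHLDA3, 0.837 for HIST1H2BE and 0.873 for HOXB13, where LAPC4-CR was low at 1.52. It was 1.00 for GAGE12C, GAGE12G and GAGE12I, which had 2, 1 and 1 fragments in LAPC4-CR and 0 in the other 3.

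For the 11 genes apart in opposite directions, the resistant minus the sensitive lineage difference on the log2(scaled FPKM + 1) scale was 6.76 for TMSB4X, 7.18 for TMSL3, 3.92 for TMSL4, 3.12 for ADD3, 3.53 for LEPREL1, 3.34 for NNT and 3.53 for UGT2B10. It was -6.73 for DSC2, -3.27 for SLC1A1, -4.20 for TMEM205 and -2.27 for TRIM47. In edgeR's interaction test each of these had an adjusted p of 1.00.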

How the results depend on the processing

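Each value was recomputed under 1 other choice at a time. The edgeR counts of 0 higher and 0 lower also came from RLE factors, from all gene classes, from limma-voom with or without the lineage as a block (the latter chosen after seeing the data), and with any 1 library left out (0 to 0). DESeq2 gave 168 higher and 232 lower, 3 separate lineages 32 and 32, no state term 11 and 8, limma on scaled FPKM 7 and 7, and no filter on low values 6 and 5. For the interaction, DESeq2 gave 35 genes against 0. The cause was not tested. No paired analysis was possible because lineage is what is compared and each lineage has 1 library per state.

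Of the 121 genes kept higher, 37 passed with a pseudocount of 5 and 61 when scaled FPKM had to average 5 or more. Of the 80 kept lower, 33 passed with a pseudocount of 5, while a pseudocount of 0.25 gave 139 and TMM-normalised CPM 145. With 1 library left out, 147 to 512 genes were kept higher and 99 to 329 lower, since fewer distances had to be met: 512 and 329 without LNCaP, 322 and 255 without LNCaP-abl, and 141 and 151 lower without LAPC4 and LAPC4-CR.

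Of 756 recomputed edgeR, DESeq2 and limma values of the 54 named genes kept apart, 92 passed an adjusted p of 0.05; their direction was fixed by the choice of the genes. Signs turned for 5 genes not kept apart. KLK3 (-0.29) was 1.39 without the state term, 1.67 with the block, 0.57 without it, and -4.15 to 1.46 with 1 library left out. TMPRSS2 was 0.91 with the block, 0.90 without it, 0.57 in limma on FPKM, 0.03 in all gene classes and -0.44 to 1.79 with 1 library left out. With 1 library left out, ETV1 ran from -0.74 to 5.86, MDM2 from -0.65 to 1.00 and B2M from -0.05 to 0.69.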
